A study of Mus musculus with 3 samples.

Results

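Mesothelial cells form the thin pleural sheet that covers the lung. Here they were chosen by measured values in single-cell RNA sequencing of mouse lung, as the barcodes that carried at least 4 unique molecular identifiers (UMIs, counted transcripts) summed over Msln, Upk3b, Wt1, Lrrn4, Upk1b and Rspo1, with at least 2 of these genes detected and 0 UMIs of the leukocyte gene Ptprc and the endothelial gene Cdh5. The rule was applied to barcodes with at least 200 genes and at most 10% mitochondrial UMIs, and it found 52 cells among 6458 kept of 6662 in all. There were 14 mesothelial cells in the non-irradiated library, 21 in the library after conventional irradiation (CONV) and 17 in the library from lungs irradiated in FLASH mode, that is at an ultra-high dose rate. All animals were C57BL/6 females aged 10 to 12 weeks, and per the labels' protocols the irradiated ones received 17 Gy of 4.5 MeV electrons to the thorax under isoflurane, whereas the non-irradiated library received 0 Gy. Each group was 1 library (n = 1), the number of mice behind each library and the time after irradiation are not given in the sources used here, and no test across animals was possible. Values in brackets are 95% intervals that cover counting error only, and levels are counts per 1000000 UMIs of the class (CPM). Higher and lower describe ratios between single libraries, with no p-value.

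Mesothelial cells arise from mesoderm but carry keratins beside vimentin, and they keep the pleural surfaces gliding by secreting fluid and surface glycoproteins. Mesothelin (Msln) is a surface protein of this sheet, Upk3b and Upk1b are uroplakins, which are membrane proteins shared with the lining of the bladder, Wt1 is the Wilms tumour transcription factor, Lrrn4 is a leucine-rich repeat membrane protein, and Rspo1 is a secreted enhancer of Wnt signalling. Ionising radiation damages DNA and thereby stabilises the transcription factor p53, whose target Cdkn1a arrests the cell cycle.

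In GENCODE M21 on GRCm38 the 6 genes lie on 5 chromosomes and are all protein coding: Msln at chr17:25748613-25754378 (minus strand), Upk3b at chr5:136038496-136046487 (plus), Wt1 at chr2:105126529-105173616 (plus), Lrrn4 at chr2:132868305-132880891 (minus), Upk1b at chr16:38773184-38800328 (minus) and Rspo1 at chr4:124986430-125009099 (plus). RefSeq promoters on GRCm38.p6 were found for Upk3b, Lrrn4 and Rspo1, 3 of the 6. The 250 bases before their starts are shown because these genes were read together in the same cells, 5′ to 3′ on the gene's strand, with matches to GGAATG, the core letters that TEAD factors bind, in capitals on either strand.
Upk3b, chr5:136038246-136038495, plus strand: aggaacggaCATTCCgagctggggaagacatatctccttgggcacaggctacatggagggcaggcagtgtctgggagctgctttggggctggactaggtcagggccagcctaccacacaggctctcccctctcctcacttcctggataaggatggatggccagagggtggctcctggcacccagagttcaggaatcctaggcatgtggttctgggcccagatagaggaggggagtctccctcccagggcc
Lrrn4, chr2:132880863-132881112, minus strand: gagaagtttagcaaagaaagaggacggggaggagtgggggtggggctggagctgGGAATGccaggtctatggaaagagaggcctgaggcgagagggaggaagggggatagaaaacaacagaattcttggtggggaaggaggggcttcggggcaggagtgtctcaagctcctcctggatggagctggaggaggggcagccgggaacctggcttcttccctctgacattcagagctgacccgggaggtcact
Rspo1, chr4:124986180-124986429, plus strand: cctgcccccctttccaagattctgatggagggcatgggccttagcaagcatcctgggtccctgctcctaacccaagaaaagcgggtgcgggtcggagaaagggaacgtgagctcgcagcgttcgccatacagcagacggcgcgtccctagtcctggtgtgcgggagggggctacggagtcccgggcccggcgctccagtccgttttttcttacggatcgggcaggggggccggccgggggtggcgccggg
The match began at position -241 from the start of Upk3b and at -196 from that of Lrrn4, whose RefSeq start lies inside the GENCODE gene, and Rspo1 held none. GGAATG occurred in 12.6% of all 32851 RefSeq promoter windows of this length and in 5 of the 18 windows found for the 25 leading class genes described further on. TGANTCA, the AP-1 letters, occurred in 6.75% of all windows, in 4 of these 18 and in none of the 3. GGGCGG (the GC box) occurred in 32.7% of all windows and in 5 of the 18, and TATAAA in 12.4% and in 1 of the 18, and neither occurred in the 3. The motifs and the window were chosen after values were seen, and a match is a match of letters only.

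The 3 libraries held 7114360, 7463259 and 5498902 UMIs (non-irradiated, CONV and FLASH), and 19 barcode sequences occurred in more than 1 of them, none in mesothelial cells of 2 libraries. The mesothelial cells summed to 75632, 89470 and 41119 UMIs. Their median depth was 5044 UMIs per cell in the non-irradiated library, 3819 in CONV and 2356 in FLASH, against 2953, 2358 and 1803 in the other kept cells. Mesothelial cells were therefore deeper than the other cells of each library, and FLASH was the shallowest. Their median mitochondrial share was 4.28%, 3.05% and 3.13%. A count of 0 allowed up to 39.7 CPM in the non-irradiated, 33.5 CPM in the CONV and 73.0 CPM in the FLASH class, taking 3 counts as the limit.

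The marker sum stood far above its limit in most cells. It ran from 35 to 114 UMIs per cell in the non-irradiated library (median 50), from 10 to 92 in CONV (median 42) and from 4 to 53 in FLASH (median 20). All 6 genes were detected in 9 of 14, 11 of 21 and 4 of 17 cells. Just inside the limit were 3 FLASH cells with sums of 4, 4 and 5 UMIs and 2 marker genes each, at 1240, 1089 and 1371 UMIs in all. Just outside it, 4 CONV and 3 FLASH cells had 2 marker genes with a sum of 2 or 3, and 0 non-irradiated cells did. A further 6, 6 and 1 kept cells reached a sum of 4 through Upk1b alone, and 5, 6 and 1 of them held at least 10 UMIs of Inmt, a gene of alveolar fibroblasts. Of the Upk1b UMIs outside the class, 80.5%, 79.4% and 78.3% lay in cells with that much Inmt. A further 2, 3 and 0 cells met the marker limits but carried Ptprc or Cdh5.

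**Figure D1:**
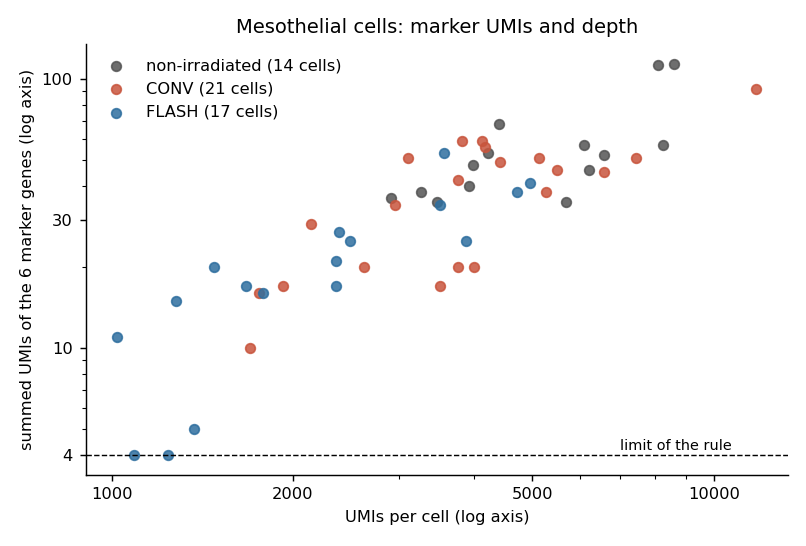
Summed UMIs of the 6 marker genes in each mesothelial cell (vertical, log axis) against all UMIs of that cell (horizontal, log axis), coloured by library, with the limit of 4 as a dashed line. Apart from 3 FLASH cells at 4 to 5 UMIs, all cells hold at least 10.

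The markers of the rule are given as a description, since they chose the cells. Msln was at 4681 CPM (4206 to 5194; 354 UMIs) in the non-irradiated, 3521 CPM (3143 to 3932; 315 UMIs) in the CONV and 3332 CPM (2797 to 3939; 137 UMIs) in the FLASH class, and at 2.45, 8.18 and 1.32 CPM in the other cells. Upk3b was at 3477, 2984 and 3478 CPM, and Upk1b at 833, 849 and 851 CPM, and the intervals of their ratios between libraries all include 1. Lrrn4 was at 582, 671 and 486 CPM and Wt1 at 370, 235 and 268 CPM, and both rested on few UMIs (11 Wt1 UMIs in FLASH). Rspo1 was at 529 CPM (378 to 720), 928 CPM (739 to 1150) and 657 CPM (433 to 955). The ratio to non-irradiated was 0.75 (0.64 to 0.88) in CONV and 0.71 (0.58 to 0.87) in FLASH for Msln, and 1.75 (1.19 to 2.63) in CONV for Rspo1.

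Markers of 16 other cell types were checked in the same cells. Epcam, the epithelial adhesion gene, had 0 UMIs in all 52 cells. All 6 thymocyte genes were at 0 in the 3 libraries, as were 4 of 6 pericyte, 4 of 7 smooth muscle, 5 of 6 dendritic and 3 of 6 lymphatic endothelial genes. The summed level over a list stayed at or below 123 CPM in every library for ciliated, smooth muscle, pericyte, lymphatic endothelial, dendritic, B, and T and NK markers, and at or below 341 CPM for neutrophil and alveolar type 1 markers. The macrophage and monocyte list summed to 317, 537 and 462 CPM, against 12903 CPM in the other cells of the FLASH library. The endothelial list summed to 423, 402 and 341 CPM, against 608.7, 328.2 and 447.8 CPM in the other cells. Of this, Kdr, a receptor for vascular endothelial growth factor, gave 331, 335 and 316 CPM in the class, while Cldn5 had 1, 2 and 1 UMIs. The adventitial fibroblast list summed to 5818, 4627 and 5350 CPM, against 630.5, 1011 and 960.1 CPM in the other cells. Most of it was Dcn, the matrix proteoglycan decorin, at 5328, 3968 and 4694 CPM in the class. Serpinf1, Ccl11 and Dpt of that list had 0 UMIs in every library and Pi16 had 0, 2 and 0. The alveolar fibroblast list, taken up below with Gpc3, summed to 5289, 3163 and 2091 CPM, against 1565, 3654 and 3173 CPM in the other cells. Apart from both fibroblast lists and the CONV endothelial list, the label mesothelial held against these markers for the summed cells of all 3 libraries. Single cells were less clear: 1 FLASH cell had 1 Msln UMI and 0 of Upk3b and Gpm6a, and 1 had 0 Msln and 17 Dcn UMIs. In CONV 1 cell had 1 Msln and 56 Dcn UMIs, with 8 of Upk3b.

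Transcripts of lung epithelium were found too, and the club and alveolar type 2 lists summed to 4165, 7444 and 7296 CPM and to 1150, 3174 and 2554 CPM. Scgb1a1, the club cell secretoglobin, was at 4033, 7053 and 7028 CPM in mesothelial cells, at 4832, 7451 and 7173 CPM in alveolar fibroblasts and at 3667, 7422 and 7272 CPM in adventitial fibroblasts, and the lowest mesothelial cell had 6 Scgb1a1 UMIs. Sftpc was at 926, 2537 and 1994 CPM in the class, 2.98%, 4.97% and 4.19% of its level in the other cells. These levels were close in 3 cell types that should lack the genes, and higher in both irradiated libraries. The fibroblasts had themselves been limited to at most 3% Scgb1a1 and Sftpc, so their levels were bounded by that choice. Genes whose level in the class, in the library where they were higher, was under 50% of that in the other cells were left out of the ranking of genes between libraries. A ranked gene could still be under 50% in the lower library, as Wfdc2, Actb and Junb were.

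Besides the rule genes, the 25 genes that stood highest against all other kept cells were Slurp1, Lgals2, Muc16, Cldn15, Chst4, Gpm6a, Spink2, Nkain4, Aldh1a2, Igfbp5, Tmem151a, Sbsn, Fam180a, Sfmbt2, Sfrp2, Sulf1, Fxyd3, Myl7, C2, Myrf, Rarres2, Smpd3, Igfbp6, Ildr2 and Prr15. Slurp1, a small secreted protein, had 230 UMIs in the 52 mesothelial cells and 17 in all other kept cells. Muc16, the large surface mucin known as CA125, had 57 and 9, and Lgals2, a galactose-binding lectin, 60 and 4. Gpm6a, a membrane glycoprotein, was at 2036, 1531 and 2019 CPM against 5.77, 8.46 and 5.10 CPM elsewhere. Aldh1a2, an enzyme that makes retinoic acid, was at 555, 525 and 778 CPM against 2.88, 3.61 and 2.46 CPM. All 25 were higher in the class than in the other cells of every library, which describes the class and is not a test.

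Some class genes were shared with fibroblasts and others were not. Rarres2 (chemerin, a secreted chemoattractant) was at 14994, 7936 and 9533 CPM in mesothelial cells, at 1034, 1097 and 1068 CPM in alveolar fibroblasts and at 1505, 1321 and 1147 CPM in adventitial fibroblasts. Igfbp6, which binds insulin-like growth factors, was at 10313, 8405 and 8755 CPM, against 603, 749 and 941 CPM and 1724, 2082 and 2114 CPM. Slurp1 had no UMI in either fibroblast class of any library. Nkain4, a membrane protein, was at 1613, 1464 and 1581 CPM in the class and at 89.7, 150 and 133 CPM in adventitial fibroblasts. Each of the 31 genes was nevertheless higher in mesothelial cells than in both fibroblast classes of every library.

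**Figure D2:**
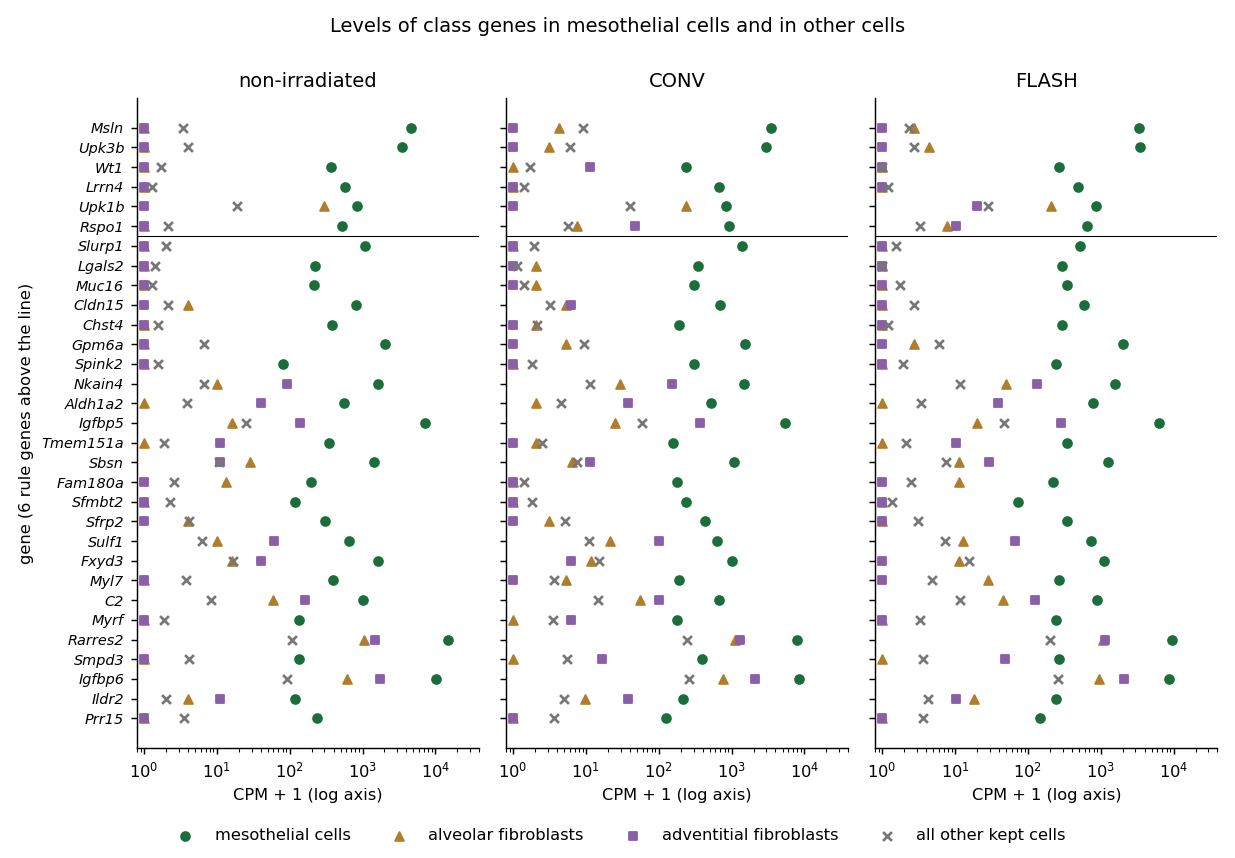
CPM + 1 (log axis) of the 6 rule genes and the 25 leading class genes, 1 panel per library, in mesothelial cells (circles), alveolar fibroblasts (triangles), adventitial fibroblasts (squares) and all other kept cells (crosses). Every circle lies to the right of the other symbols of its row, and Upk1b is the rule gene with the highest level in alveolar fibroblasts.

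Mesothelial cells made up under 1% of the kept cells in each library. The share was 0.810% (0.444 to 1.36) of 1728 kept cells in the non-irradiated, 0.863% (0.535 to 1.32) of 2434 in the CONV and 0.740% (0.432 to 1.18) of 2296 in the FLASH library, with exact Clopper-Pearson intervals. The difference was 0.0526 points (-0.569 to 0.611) for CONV and -0.0698 points (-0.682 to 0.480) for FLASH against the non-irradiated library, and -0.122 points (-0.653 to 0.411) for FLASH against CONV. Over kept cells without Ptprc UMIs the shares were 1.60%, 1.25% and 1.04%, and FLASH differed from non-irradiated by -0.558 points (-1.70 to 0.337). No difference was detectable at this number of cells, and the intervals leave room for a loss or gain of more than 0.4 points. What dissociation and cell loading add to these shares was not tested.

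Gene levels were then compared between the mesothelial cells of the libraries. A gene is counted as changed if its summed level differed by at least 2-fold, among genes with at least 30 UMIs in the 2 libraries together, with a count of 0 set to 3. In CONV against non-irradiated, 28 of 874 genes were at least 2-fold higher (3.2%) and 29 at least 2-fold lower (3.32%). In FLASH against non-irradiated, 16 of 624 were higher (2.56%) and 31 lower (4.97%). In FLASH against CONV, 15 of 669 were higher (2.24%) and 22 lower (3.29%). The first and second of these comparisons share the non-irradiated cells. When each cell was thinned to 1000 UMIs to equalise depth, 64 of 105 gene ratios whose interval had excluded 1 no longer did. Thinning discards most UMIs of the class, which by itself widens the intervals, and 6 of the 105 crossed 1. Another setting left out 1 cell, the one with most UMIs of the gene in the library where it was higher. There 31 of 105 intervals no longer excluded 1, but this choice tends to move ratios towards 1 or past it. Values under such settings stand beside several of the ratios that follow.

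Most measured targets of p53 were higher in both irradiated libraries. Of the 30 listed p53 targets, 8 had at least 10 UMIs in the 2 libraries. In CONV 7 of these 8 were above the non-irradiated level, with a median log2 ratio of 0.88, and in FLASH 8 of 8 were, with a median of 0.87. Over all genes with as many UMIs the medians were -0.02 (1279 of 2672 higher) and -0.06 (954 of 2006 higher). In FLASH against CONV the median of the 8 was -0.09, beside -0.05 over all genes. Past 2-fold higher with at least 30 UMIs were 3 of 5 measured targets in CONV and 2 of 3 in FLASH, beside 3.2% and 2.56% of all genes.

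Cdkn1a, the p21 inhibitor of cyclin-dependent kinases, was at 423 CPM (32 UMIs in 7 of 14 cells) in the non-irradiated, 1308 CPM (117 UMIs in 18 of 21 cells) in the CONV and 1119 CPM (46 UMIs in 9 of 17 cells) in the FLASH class. Both irradiated levels lay above the non-irradiated one, by 3.09-fold (2.08 to 4.72) and 2.64-fold (1.65 to 4.29), and the ratio of FLASH to CONV was 0.86 (0.59 to 1.21). After thinning, with wider intervals, the Cdkn1a ratios were 7.33 (1.80 to 64.3) and 8.24 (2.00 to 72.7). Rps27l, a ribosomal protein paralogue under p53 control, was at 569, 1207 and 1167 CPM, 2.12-fold (1.48 to 3.10) and 2.05-fold (1.33 to 3.17) higher, the second of which was 3.29-fold (1.2 to 11.2) after thinning. Ccng1, cyclin G1, had 10, 29 and 14 UMIs (132, 324 and 341 CPM), 2.45-fold (1.16 to 5.64) and 2.58-fold (1.06 to 6.48) higher, but 2.21-fold (0.853 to 5.81) without the FLASH cell with the most. Without the deepest cell of each library the Ccng1 ratios were 5.61 (1.95 to 22.1) and 5.56 (1.69 to 23.7). After thinning, no Ccng1 UMI was left in the non-irradiated cells, and with 3 set in its place the CONV ratio was 1.56. Its interval began at 0.961 and so included 1. Btg2, an antiproliferative gene, was at 436, 704 and 559 CPM, with an interval above 1 in CONV only (1.04 to 2.54). The death effector Bax, at 106, 212 and 195 CPM, and Phlda3, an inhibitor of Akt, at 159, 235 and 268 CPM, had intervals that include 1, as did Ei24 and Perp. Mdm2, which degrades p53, had 3, 1 and 1 UMIs and Gdf15, a secreted stress cytokine, 0, so neither could be measured.

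The same targets were set beside those of lung fibroblasts, cells that are also stromal but lie inside the tissue. In alveolar fibroblasts 21 and 19 targets were measured, with a median log2 ratio of 0.98 in CONV and 1.00 in FLASH, beside -0.03 and -0.04 over all genes. In adventitial fibroblasts 10 and 9 were, with medians of 0.90 and 1.05, beside 0.10 and 0.07. Cdkn1a was at 82.6, 613 and 725 CPM in alveolar and at 418, 746 and 588 CPM in adventitial fibroblasts, and at 145, 579 and 626 CPM over all other kept cells. The Cdkn1a level was above those of both fibroblast classes in each library, by the least in the non-irradiated one (423 against 418 CPM in adventitial fibroblasts). The differences between cell types were not tested. The limits that define these fibroblasts were set after seeing the data.

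Transcription factors of stress and immediate early response were mixed. Of 17 measured immediate early genes 10 were higher in CONV (58.8%, median log2 ratio 0.17) and 9 in FLASH (52.9%, median 0.0047), beside 47.9% and 47.6% of all genes. Cebpb, the C/EBP-beta factor of inflammatory and acute phase genes, was at 92.6 CPM (7 UMIs in 5 of 14 cells), 771 CPM (69 UMIs in 18 of 21) and 584 CPM (24 UMIs in 10 of 17), 8.33-fold (3.84 to 21.5) and 6.31-fold (2.64 to 17.3) higher, and 18.0-fold (2.97 to 737) and 5.76-fold (0.741 to 260) after thinning. In the other kept cells Cebpb was at 61.1, 944 and 789 CPM. Jund, an AP-1 subunit, was at 648, 1677 and 1824 CPM, 2.59-fold (1.86 to 3.65) and 2.82-fold (1.94 to 4.12) higher. Klf4, a zinc finger factor, was at 370, 615 and 851 CPM and the related Klf2 at 807, 1140 and 1338 CPM, with all 4 intervals above 1. After thinning, Jund in CONV was 1.93-fold (0.916 to 4.447) and Klf4 in FLASH 1.92-fold (0.694 to 6.101), with intervals that included 1.

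Fos, Jun and Junb, also AP-1 subunits, had another pattern. Fos was at 1481, 2649 and 1775 CPM, Jun at 635, 1028 and 413 CPM and Junb at 621, 849 and 438 CPM, each highest in CONV. FLASH against CONV was 0.67 (0.51 to 0.87) for Fos, 0.40 (0.22 to 0.68) for Jun and 0.52 (0.29 to 0.87) for Junb. After thinning these were 0.70 (0.414 to 1.153), 0.59 (0.247 to 1.305) and 0.54 (0.188 to 1.388), and all 3 intervals included 1. Egr1, a growth factor-induced factor, was at 555, 402 and 195 CPM, 0.35-fold (0.14 to 0.76) in FLASH against non-irradiated. These genes were carried by few cells: 1 of the 8 non-irradiated cells with Fos held 64 of 112 Fos UMIs, and 1 of the 7 with Egr1 held 22 of 42. Without the non-irradiated cell with the most UMIs, the Egr1 ratio was 0.66 (0.25 to 1.55), and the Jun ratio of FLASH to non-irradiated went from 0.65 (0.35 to 1.15) to 1.27 (0.63 to 2.50). The Junb ratio of FLASH to CONV was 0.87 (0.474 to 1.54) without the CONV cell with the most, and Junb was at 1162, 982 and 1082 CPM in the other kept cells.

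**Figure D3:**
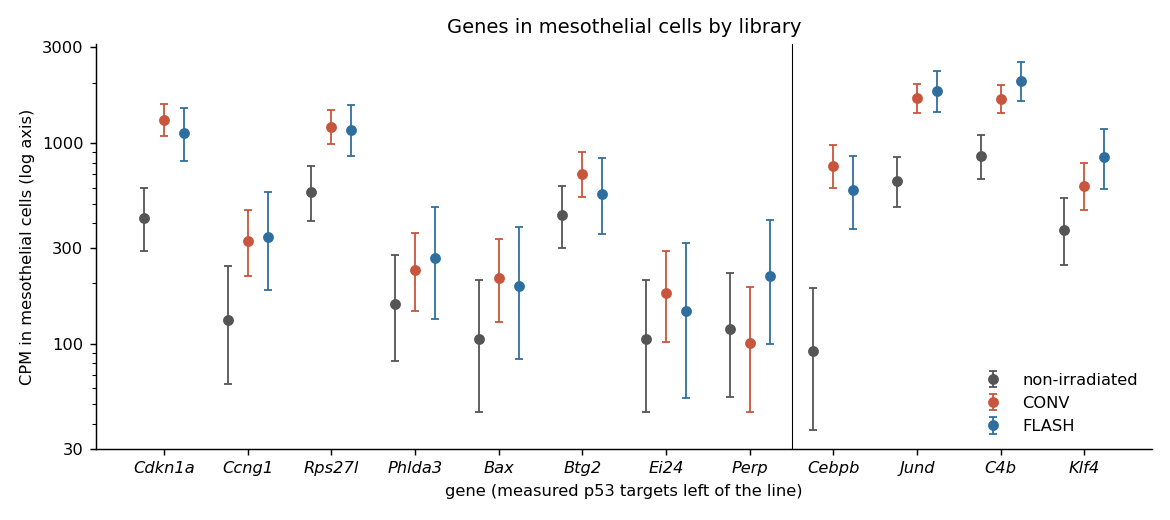
CPM in mesothelial cells (log axis) of the 8 measured p53 targets and of Cebpb, Jund, C4b and Klf4, by library, with exact Poisson 95% intervals as bars. The Cdkn1a, Rps27l, Cebpb, Jund and C4b levels of both irradiated libraries lie above the non-irradiated intervals.

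Genes of mesothelial identity outside the rule were lower after irradiation in most cases. Of 24 measured identity genes 21 were lower in CONV (median log2 ratio -0.35) and 18 in FLASH (-0.21), while 1393 of 2672 and 1052 of 2006 of all genes were lower. In FLASH against CONV 18 of 24 were higher (0.19), beside 1006 of 2150 of all genes (-0.05). Past 2-fold lower were 2 of the 22 genes with at least 30 UMIs in CONV and 0 of 22 in FLASH, beside 3.32% and 4.97% of all genes. Most of these differences were therefore below 2-fold. The list holds genes that mark the class and was chosen with earlier results of these data known, so its direction is a description.

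Several of these lower genes encode secreted proteins. Rarres2 was at 14994 CPM in the non-irradiated, 7936 CPM in the CONV and 9533 CPM in the FLASH class, ratios of 0.53 (0.48 to 0.58) and 0.64 (0.57 to 0.71). It was detected in all 52 cells, and its CONV ratio was also 0.53 without the non-irradiated cell with the most. Efemp1, the matrix protein fibulin-3, was at 2578, 1297 and 1946 CPM, with ratios of 0.50 (0.40 to 0.64) and 0.75 (0.57 to 0.98), the second of which was 0.81 (0.609 to 1.06) without the non-irradiated cell with the most. Clu, the secreted chaperone clusterin, was at 3305, 2202 and 2262 CPM. Igfbp5 was at 7232, 5410 and 6323 CPM, with ratios of 0.75 (0.66 to 0.85) and 0.87 (0.751 to 1.015). In FLASH 1 cell held 108 of its 260 UMIs. The FLASH ratio of Igfbp5 was 0.58 (0.48 to 0.70) without the deepest cell of each library. It was 0.97 (0.83 to 1.13) without the non-irradiated cell with the most. Slpi, the secreted inhibitor of leukocyte proteases, was at 7960, 4482 and 4694 CPM, with ratios of 0.56 (0.50 to 0.64) and 0.59 (0.50 to 0.69). Without the non-irradiated cell with the most Slpi these were 0.69 (0.60 to 0.79) and 0.72 (0.60 to 0.85). With a mitochondrial limit of 5% the FLASH ratio of Slpi was 0.29 (0.231 to 0.362), and FLASH against CONV went from 1.05 to 0.55 (0.435 to 0.692).

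Of 9 measured genes on the list of lubricant and surface glycoproteins, which holds Msln of the rule too, 7 were lower in CONV (median log2 ratio -0.41) and 6 in FLASH (-0.49), beside 1393 of 2672 and 1052 of 2006 of all genes. Has1 and Muc16 were higher in both, but the Has1 interval in CONV (0.787 to 36.2) and both Muc16 intervals include 1. Gpc3, the heparan sulfate proteoglycan glypican-3, was at 4482 CPM (339 UMIs in 14 of 14 cells), 2682 CPM (240 UMIs in 20 of 21) and 1581 CPM (65 UMIs in 13 of 17). FLASH lay below the non-irradiated level by a ratio of 0.35 (0.27 to 0.46) and below CONV by 0.59 (0.44 to 0.78). Aqp1, a water channel of this sheet, was at 3914, 2872 and 2189 CPM, and Pdpn, the membrane glycoprotein podoplanin, at 595, 346 and 316 CPM, with a FLASH interval of 0.263 to 1.002. Bsg (basigin) was at 4086, 2414 and 2237 CPM and the cytoskeletal Actb at 4205, 2191 and 2310 CPM, which was at 6708, 5023 and 5198 CPM in the other kept cells.

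Gpc3 and Ces1d, a carboxylesterase at 542, 145 and 146 CPM, are also markers on the alveolar fibroblast list, which summed to 400, 283 and 86 UMIs (5289, 3163 and 2091 CPM), or 9 to 55, 0 to 58 and 0 to 12 UMIs per cell. Its other genes were low: Inmt had 2, 2 and 6 UMIs, Tcf21 1, 1 and 1, Mfap4 0, 3 and 1, Limch1 5, 9 and 3, and Npnt 12, 15 and 4. Of its 7 genes 1, 0 and 0 were at 0 in the respective libraries, and its part in the lower Gpc3 and Ces1d was not tested. Gpc3 was at 591, 483 and 566 CPM in alveolar fibroblasts themselves, below every mesothelial level, whereas Ces1d was at 909, 598 and 602 CPM there, above them.

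Keratins, the filament proteins of epithelia, were measured one by one. Krt8 was at 529, 235 and 341 CPM, 0.44-fold (0.25 to 0.77) in CONV but 0.67-fold (0.218 to 2.04) after thinning, and Krt19 at 1084, 1062 and 1605 CPM, 1.48-fold (1.05 to 2.07) in FLASH against non-irradiated and 1.51-fold (1.09 to 2.09) against CONV. Krt7 was at 1388, 1140 and 949 CPM, 0.68-fold (0.46 to 0.995) in FLASH against non-irradiated, and Krt18 at 463, 313 and 462 CPM. Cldn15, a tight junction claudin, was at 820, 682 and 584 CPM with intervals that include 1. All 4 keratin ratios were below 1 in CONV against non-irradiated, and those of Krt19 were 1.29 (0.892 to 1.84) and 1.31 (0.919 to 1.86) in FLASH without the FLASH cell with the most.

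**Figure D4:**
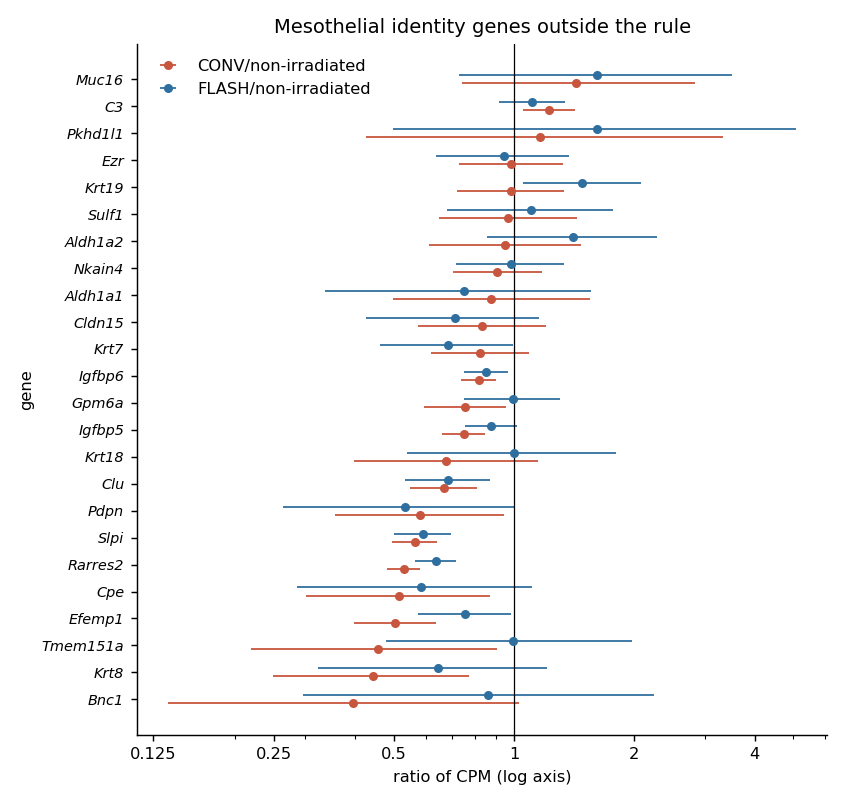
Ratio of CPM to the non-irradiated class (log axis) for the 24 measured identity genes outside the rule, CONV in red and FLASH in blue, with exact 95% intervals as bars and 1 as a line. Of the 24 genes, 21 lie left of 1 in CONV and 18 in FLASH.

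Matrix genes showed a few differences in CONV. Of 19 measured matrix and transition genes 15 were higher in CONV (median log2 ratio 0.22) and 10 of 16 in FLASH (0.09), beside 47.9% and 47.6% of all genes. Of 10 with at least 30 UMIs Cyr61 was past 2-fold higher and Fbln1 past 2-fold lower in CONV, beside 3.2% and 3.32% of all genes, and the Fbln1 ratio was 1.17 (0.441 to 3.31) without 1 non-irradiated cell. Timp2, an inhibitor of matrix metalloproteases, was at 2380, 3711 and 3672 CPM, 1.56-fold (1.30 to 1.88) and 1.54-fold (1.24 to 1.93) higher. Timp1, of the same family, had 4, 25 and 4 UMIs in 3, 11 and 4 cells, 5.28-fold (1.82 to 20.9) higher in CONV than in non-irradiated. Cyr61, a matricellular target of the co-activator YAP, had 10, 37 and 6 UMIs, 3.13-fold (1.53 to 7.05) higher in CONV, and FLASH was 0.35-fold (0.12 to 0.84) of CONV. Igfbp4 had 5, 29 and 6 UMIs, 4.90-fold (1.88 to 16.2) higher in CONV. After thinning, the CONV ratio was 2.33 (0.444 to 23.02) for Igfbp4. Timp1 and Cyr61 then had no UMI left in the non-irradiated cells, and with 3 set in its place their CONV ratios were 1.56 and 2.00. The Timp1 interval began at 0.961 and so included 1, and the Cyr61 interval began at 1.32. Vim, Sparc and Col3a1 were at 1322, 1386 and 1313 CPM, 1203, 1308 and 1240 CPM, and 714, 671 and 608 CPM, and Acta2, the smooth muscle actin of myofibroblasts, had 0, 3 and 1 UMIs.

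Hyaluronan is the lubricant of the pleura, and Has1, which synthesises it, had 2 UMIs in 2 non-irradiated cells, 9 in 2 CONV cells and 18 in 4 FLASH cells. Of the 9 CONV UMIs 8 were in 1 cell, which had 1 Msln, 56 Dcn and 36 Lgals1 UMIs. The FLASH cell with 11 of the 18 had 10 Msln, 52 Dcn and 19 Lgals1 UMIs. The other CONV cell with Has1 had 21 Dcn UMIs, and the other FLASH cells with Has1 had 10, 6 and 9. The ratio of FLASH to non-irradiated was 16.6 (3.96 to 147), and it was 7.11 (1.35 to 70.1) without the FLASH cell that held 11 of the 18, and 3.29 (0.326 to 162) after thinning. The ratio of FLASH to CONV was 4.35 (1.86 to 11), and 1.87 (0.59 to 5.64) without that cell and 2.47 (0.354 to 27.3) after thinning. Has2 and the lubricant gene Prg4 had 0 UMIs in all 3 libraries.

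Of 9 measured complement, acute phase and innate defence genes 4 were higher in CONV (median log2 ratio -0.05) and 3 in FLASH (-0.07), beside -0.02 and -0.06 over all genes. C4b, complement component 4, was at 859 CPM (10 of 14 cells), 1665 CPM (18 of 21) and 2043 CPM (17 of 17), 1.94-fold (1.44 to 2.64) and 2.38-fold (1.70 to 3.34) higher. C3, the central complement protein, was at 3887, 4750 and 4305 CPM, with an interval above 1 in CONV (1.05 to 1.42). C1ra, a protease of the first complement component, was lower, at 542, 246 and 268 CPM, with ratios of 0.45 (0.26 to 0.78) and 0.49 (0.23 to 0.98). After thinning the C1ra ratios were 0.37 (0.0975 to 1.23) and 0.82 (0.29 to 2.34), with intervals that included 1. Without the non-irradiated cell with the most they were 0.50 (0.28 to 0.88) and 0.54 (0.25 to 1.10). C2 was 0.67-fold (0.468 to 0.949) in CONV. H2-K1, a class I molecule, was at 1005, 1498 and 2019 CPM, and its ratio of FLASH to non-irradiated was 2.01 (1.45 to 2.78). Ifitm3, an interferon-induced membrane protein, was at 1838, 2515 and 3526 CPM, 1.37-fold (1.10 to 1.70) and 1.92-fold (1.51 to 2.44) higher. In CONV H2-K1 was 1.49-fold (1.12 to 2.00) higher, but 0.95-fold (0.527 to 1.75) after thinning, when the FLASH ratio was 1.33 (0.752 to 2.42). Over the interferon list 5 of 9 genes were higher in either comparison with non-irradiated, beside 47.9% and 47.6% of all genes. The medians of the list were 0.19 and 0.19, beside -0.02 and -0.06 over all genes. Past 2-fold were 0 of 6, beside 3.2% and 2.56% of all genes higher and 3.32% and 4.97% lower.

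Of 25 listed chemokines, cytokines and their regulators, 7 were measured in CONV and 4 in FLASH. Cebpb, which is on that list too, and Csf1 (2.07-fold) were past 2-fold higher in CONV, beside 3.2% of all genes. Cxcl1 had 1, 0 and 0 UMIs, and Ccl2, Il6 and Saa3 had 0 in every library, although Ccl2 was at 64.3, 141 and 152 CPM in the other kept cells. Csf1, a macrophage growth factor, had 9, 22 and 8 UMIs and Il33, an alarmin, 17, 12 and 11, with all intervals including 1. Of the cell cycle genes, Mki67 and Top2a had 0 UMIs in all 52 cells.

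Clock, metal and chaperone genes were measured as well. Dbp, a transcription factor with a daily rhythm, had 28, 25 and 11 UMIs in mesothelial cells (370, 279 and 268 CPM), with ratios of 0.75 (0.42 to 1.34) and 0.72 (0.325 to 1.497). The other kept cells had Dbp at 27.0, 159 and 160 CPM, and the difference between the cell types was not tested. Of 13 measured metallothionein and NRF2 genes 9 were lower in CONV and 10 in FLASH (medians -0.24 and -0.29), beside 1393 of 2672 and 1052 of 2006 of all genes. Among chaperones, Hspa5 of the endoplasmic reticulum was at 661, 257 and 535 CPM, 0.39-fold (0.23 to 0.65) in CONV but 0.89-fold (0.271 to 3.11) after thinning, while Hspb1, Hsp90aa1 and Hsp90ab1 had intervals that include 1.

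Some further genes ranked among the 10 highest or lowest. Malat1, a nuclear long non-coding RNA, was at 17519, 32223 and 34704 CPM, 1.84-fold (1.72 to 1.96) and 1.98-fold (1.84 to 2.14) higher. In FLASH, Dmkn, a secreted epithelial protein, was at 331, 481 and 1046 CPM, and Slc25a3, the mitochondrial phosphate carrier, at 291, 425 and 924 CPM. AU021092 was at 1692, 838 and 681 CPM, and Vamp8, a vesicle fusion protein, at 807, 704 and 268 CPM. In FLASH against CONV Slurp1 was at 0.36-fold (0.22 to 0.58), with 83, 126 and 21 UMIs in 9, 15 and 6 cells, and at 0.21-fold (0.102 to 0.391) with a mitochondrial limit of 5% and 0.19-fold (0.0587 to 0.499) after thinning.

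Mesothelial cells differed much from one another in some of these genes. The genes named here were picked after their values were seen. Igfbp6 and Rarres2 were found in all 52 cells and Igfbp5 in 50. Slpi, with 1196 UMIs, was found in 36 of the 52, from 0 to 324 UMIs per 10000, and its top 5 cells held 46.7% of the UMIs. Wfdc2, another secreted protein of the same domain family, had 105 UMIs in 19 cells, with 83.8% in the top 5, and 51 of its 59 non-irradiated UMIs were in 1 cell. The other kept cells had Wfdc2 at 837, 1510 and 1448 CPM. Its ratio of CONV to non-irradiated was 0.26 (0.14 to 0.44) over all cells and 1.79 (0.74 to 4.76) without that cell. Slurp1 was found in 30 cells. Lgals1, the lectin galectin-1, had 171 UMIs in 24 cells, with 79.0% in the top 5, and its CONV ratio of 2.77 (1.85 to 4.26) was 1.82 (1.17 to 2.87) without the top cell and 4.40 (1.71 to 14.4) after thinning. Meg3, a long non-coding RNA, had 38 UMIs in 2 CONV cells, 30 of them in 1, and its CONV ratio of 5.35 (2.25 to 15.5) was 1.23 (0.37 to 4.30) without it.

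**Figure D5:**
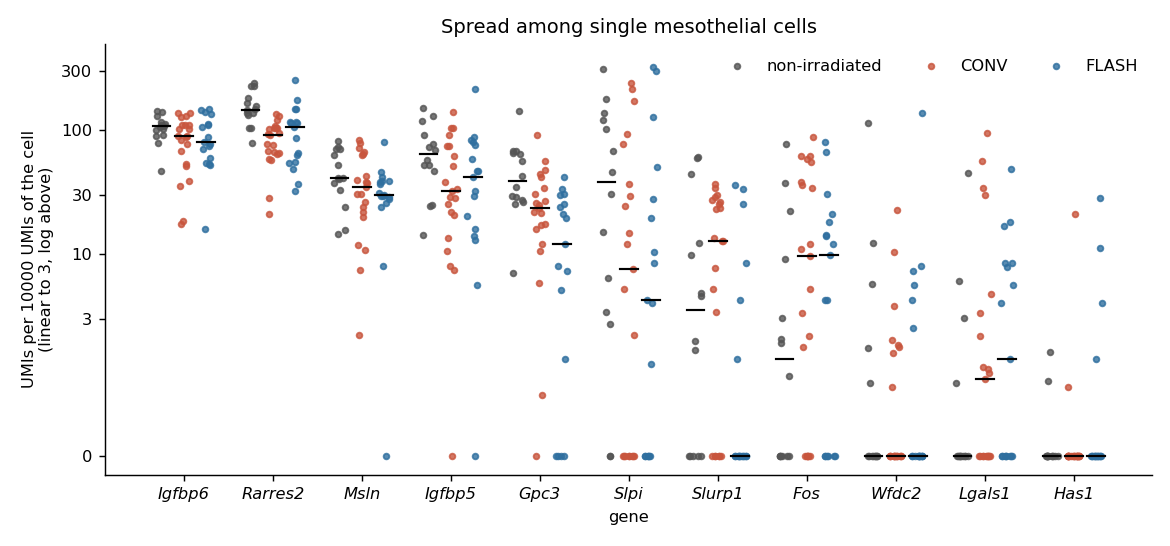
UMIs per 10000 UMIs of the cell (linear to 3, log above) for 11 genes in the single mesothelial cells of each library, 1 point per cell, with medians as bars. Igfbp6 and Rarres2 lie above 0 in every cell, whereas Slpi, Slurp1, Wfdc2 and Lgals1 range from 0 to high values within each library.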

How the data were processed

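The deposited values were UMI counts per gene and barcode; the submitters' processing notes name Cell Ranger 2.0 and mm10. No normalization had been applied. Mice per library were not given, so intervals measure counting error only.

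Barcodes were kept at 200 or more genes and at most 10% mitochondrial UMIs, and the class was taken by the rule given in the report. Counts were summed over its cells and divided by their total (CPM). Intervals at 95% were exact Poisson for CPM, exact conditional binomial for ratios, Clopper-Pearson for shares and Newcombe for their differences. List medians are log2 ratios with a pseudocount of 1 CPM over genes with at least 10 UMIs. No doublets were removed in the values reported.

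The members, the 17 gene lists and 17 marker lists were chosen with earlier results of these data known. Named genes were the 25 highest against other cells, the 10 highest and 10 lowest per comparison by the interval bound nearest 1, and up to 6 of each list plus those past 2-fold, and from these the text takes a selection. Fibroblasts for comparison (97, 393 and 323 alveolar; 25, 78 and 57 adventitial) needed 10 UMIs over at least 4 of their 7 markers, no Epcam, and at most 3% Scgb1a1 and Sftpc. These limits were changed 2 times after seeing the data, the last time because club cells had been mixed in. The choice of uneven genes was made likewise. Python 3.11.15, numpy 2.4.6, scipy 1.17.1, pandas 2.3.3, scanpy 1.11.5 and matplotlib 3.10.9 were used.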

Additional observations from a re-analysis of the deposited data

How the results depend on the processing

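The count past 2-fold depends on the UMI minimum. Against 28 higher and 29 lower genes in CONV, 16 and 31 in FLASH (both against non-irradiated) and 15 and 22 in FLASH against CONV, a minimum of 60 UMIs left 10 and 7, 10 and 12, and 3 and 4, and a minimum of 10 gave 219 and 242, 149 and 227, and 155 and 225. After thinning members to 1000 UMIs (chosen after seeing the data, as were the settings that leave out a gene's top cell) CONV had 12 and 6, FLASH 4 lower, and FLASH against CONV 4 and 6. The p53 median ranged from 0.56 to 1.00 in CONV and from 0.69 to 1.08 in FLASH, and crossed 0 in FLASH against CONV (-0.15 to 0.17). The share difference ranged from -0.35 to 0.17 points in CONV, from -0.56 to 0.0086 in FLASH and from -0.25 to -0.079 in FLASH against CONV.

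The following are the 12 values that crossed 1 for ratios whose interval had excluded it. After thinning, CONV against non-irradiated gave 0.67 for Col4a2 (from 4.65), 0.95 for H2-K1 (from 1.49), 1.07 for Mt2 (from 0.46) and 0.67 for Smpd3 (from 2.96), and FLASH against CONV gave 0.82 for Anxa1 (from 1.86) and 0.77 for Hspa5 (from 2.08). The top cell of a gene was left out only from the library where the gene was higher. Without it, CONV gave 1.17 for Fbln1 (from 0.46), 1.30 for Mt2, 1.79 for Wfdc2 (from 0.26) and 1.005 for Zfp36 (from 0.46). FLASH against CONV gave 0.78 for Igfbp5 (from 1.17), which was 0.83 without the deepest cell of each library. The cause was not tested. A further 40 values crossed 1 for ratios whose interval included it, among them Fos in FLASH against non-irradiated (1.199 to 0.852) and Slpi in FLASH against CONV (1.05 to 0.55). For Fos the FLASH cell with the most was left out, while the non-irradiated cell with 64 Fos UMIs stayed in. Over single genes and list medians, 2335 alternative values stayed with the main one, 46 moved out of its counting interval (for medians, the range over the genes of the list) and 12 changed side. Removing Scrublet doublets took 0, 0 and 1 members. A limit of 2 Scgb1a1 UMIs left no member, so it gave no value. No paired analysis was possible because each group is 1 library.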
